A study of Arabidopsis thaliana with 27 samples.

Results

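The genes described here are the 137 genes whose transcripts were at least 2-fold higher in phyB seeds than in wild-type seeds of Arabidopsis thaliana at every time sampled. They were chosen from the count table alone. Counts were scaled to the total of their library, as 1000000 times the count over the total (CPM), the 3 replicates of a group were averaged, and a gene was kept where (phyB + 0.1)/(WT + 0.1), called the ratio below, was at least 2 at 12, 24 and 48 h, with 1 CPM or more in some phyB group. Of 33612 rows, 160 met these thresholds. Of those, 21 rows with split identifiers and 2 named loci were left out by the rule. The 137 that remained are 0.836% of the 16381 rows with 1 CPM or more in some phyB group. By locus type 130 are protein coding, 4 are other RNAs and 3 are pseudogenes.

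The seeds came from phyB, a mutant of the red-light photoreceptor phytochrome B, from hid1, mutated in the long noncoding RNA gene HID1, and from the wild type Col-0 (WT). After dry storage and white light during plating, seeds of each genotype got a red pulse that activates phytochrome B, and were then kept dark for 12, 24 or 48 h. There were 27 poly(A) RNA libraries of whole seeds, 3 biological replicates for each genotype at each time. The labels give neither the phyB nor the hid1 allele, and parents of all genotypes were grown side by side.

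Phytochrome B is switched on by red light and then enters the nucleus, where it removes or inactivates phytochrome-interacting factors (PIFs), a group of bHLH transcription factors. In imbibed seeds this releases germination: gibberellin is made, abscisic acid (ABA) is lost, and stored proteins and oil begin to be used. Seeds without active phytochrome B stay dormant more often in the dark. Dormant and dry seeds are known for high levels of storage, dehydration and heat shock transcripts.

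Library totals lay between 14750212 and 26293148 counts. HID1 had 0 to 1 count in each hid1 library, against 243 to 500 counts in each WT library. PHYB transcript was still read in phyB seeds, at 57.9 to 84.4 CPM against 103 to 145 CPM in WT, so with an unnamed allele its level checks the phyB label only in part. The phyB libraries labelled 12 h or 24 h stand apart from their labels in some measures. Over 19759 genes, the phyB mean labelled 24 h correlated with the WT mean at 12 h at 0.9691 (Pearson, log2 of CPM + 1), and the phyB mean labelled 12 h did so at 0.9484. With the WT mean at 24 h the phyB mean labelled 24 h correlated at 0.9402 and that labelled 12 h at 0.938. Mitochondrial transcripts took 0.0178 to 0.0202% of counts in phyB at 12 h, against 0.0764 to 0.160% in hid1 and WT at 12 h and 0.0151 to 0.0280% in all genotypes at 24 h. The phyB libraries at 24 h took 0.0195 to 0.0246%, so this measure sets only those labelled 12 h apart. With the phyB 12 h and 24 h labels exchanged the rule gave 129 genes, of which 80 are among the 137. The 57 not kept include GA20OX3 and CYP71A13 (exchanged ratios of 0.992 and 0.107 at 24 h). They also include NDA1, LTI30 and HSFA2 (0.837, 1.82 and 1.71 at 12 h). In 125 of the 137 both exchanged ratios were at least 1. Values and orders over time in phyB are given below by the labels as they stand. Storage and oil body markers, counted as 6 genes (CRA1, CRC, SESA1, SESA3, OLEO1 and OLEO2), summed to 197865 to 215237 CPM in phyB at 48 h, against 6488 to 11445 CPM in WT, with all 6 higher in every phyB library. At the same time 7 endosperm markers summed to 10377 to 11417 CPM in phyB against 901 to 997 CPM in WT, with 4 higher and 2 lower in every phyB library. The sum of 6 embryo markers was 225 to 243 CPM in phyB against 1496 to 1827 CPM in WT, with all 6 lower in every phyB library. Over all candidate rows the median log2 difference of phyB from WT was 0.115 at 12 h, -0.187 at 24 h and -0.542 at 48 h on these CPM values, so the typical gene was lower in phyB at 48 h.

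The choice used the phyB and WT values of each gene, so they are given here as a description and are not tested. The median ratio over the 137 genes was 3.41 at 12 h, 2.76 at 24 h and 6.27 at 48 h. The gap was widest at 48 h for 95 genes, at 12 h for 36 and at 24 h for 6. It was narrowest at 24 h for 76 genes. Among the candidate rows, 13.1% were at least 2-fold higher in phyB at 12 h, 7.17% at 24 h and 16.2% at 48 h. In 131 genes all phyB libraries lay above all WT libraries at all 3 times, a pattern that 7.86% of the candidate rows showed. Just inside the threshold stood PDLP1 (smallest ratio 2.0014), AT3G02840 (2.0074) and AT4G28811 (2.0127). Just outside it stood AT4G15630 (1.9935), AT3G19615 (1.9865) and Hop3 (1.9822).

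**Figure D1:**
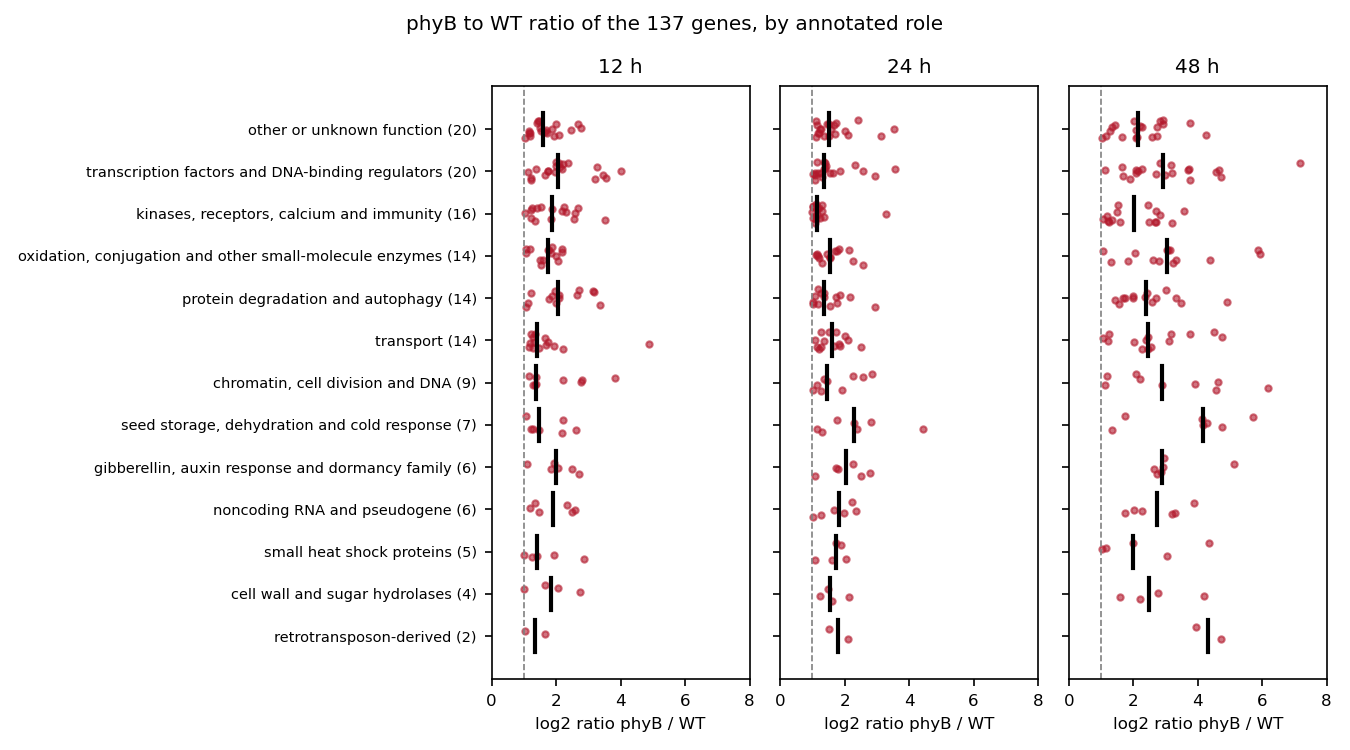
Ratio of phyB to WT, with 0.1 CPM added to each mean, on a log2 axis for the 137 genes at 12, 24 and 48 h. Each point is a gene, black bars are the medians of 13 role groups with the number of genes in brackets, and the dashed line marks the threshold of 2; at 48 h the points reach 144 for MEE8.

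Sorted by annotation, the largest groups were 20 transcription factors and DNA-binding regulators, 16 kinases, receptors, calcium and immune proteins, 14 proteins of degradation and autophagy, 14 enzymes of small molecules and 14 transporters. Smaller groups held 9 genes of chromatin and cell division, 7 of seed storage, dehydration and cold, 6 of gibberellin, auxin response and the dormancy family, 5 small heat shock proteins and 4 hydrolases of cell wall and sugars. A further 20 genes had another or no known function. In the plot of ratios by role, the storage, dehydration and cold group had the largest median at 48 h of any group with more than 2 genes, 17.8, against a median of 2.78 at 12 h. The 5 small heat shock genes had medians of 2.67 at 12 h, 3.29 at 24 h and 3.98 at 48 h.

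The DNA just before some of these genes holds short motifs that bear on light, ABA and heat, and 5 such stretches are shown because their genes recur in the results below. They are the 250 bases before the annotated gene start in the RefSeq TAIR10.1 genome, written 5′ to 3′ on the strand of the gene. In the first 3, capitals mark the G-box CACGTG, the core to which PIFs and bZIP factors such as HY5 bind. They come from AT3G60690 (SAUR59, a small auxin-up RNA; chr3:22434614-22434863, plus strand), AT1G05340 (a cysteine-rich membrane module stress protein; chr1:1559918-1560167, minus strand) and GCL1 (AT5G65280, a LanC-like protein; chr5:26088278-26088527, minus strand).
AT3G60690: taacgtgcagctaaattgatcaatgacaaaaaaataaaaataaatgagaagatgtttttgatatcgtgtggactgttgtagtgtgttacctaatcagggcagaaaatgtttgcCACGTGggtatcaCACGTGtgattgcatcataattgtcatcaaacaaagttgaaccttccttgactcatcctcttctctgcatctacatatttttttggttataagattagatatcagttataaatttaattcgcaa
AT1G05340: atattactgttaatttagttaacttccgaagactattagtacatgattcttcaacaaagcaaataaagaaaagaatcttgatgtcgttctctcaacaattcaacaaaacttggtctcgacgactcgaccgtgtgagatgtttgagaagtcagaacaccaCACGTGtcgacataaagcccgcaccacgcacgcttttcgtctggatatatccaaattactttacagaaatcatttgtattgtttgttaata
GCL1: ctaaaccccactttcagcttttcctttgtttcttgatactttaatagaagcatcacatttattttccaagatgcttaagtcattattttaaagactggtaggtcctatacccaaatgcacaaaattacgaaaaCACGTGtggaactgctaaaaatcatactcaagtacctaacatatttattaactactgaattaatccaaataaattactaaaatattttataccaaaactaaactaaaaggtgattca

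In the other 2, from HSFA2 (AT2G26150, a heat shock transcription factor; chr2:11135374-11135623, plus strand) and AT1G53540 (a small heat shock protein; chr1:19980049-19980298, plus strand), capitals mark a heat shock element (the blocks GAA, TTC and GAA, or TTC, GAA and TTC, with 2 bases of any kind between neighbouring blocks). The HSFA2 stretch also holds a G-box, left in small letters.
HSFA2: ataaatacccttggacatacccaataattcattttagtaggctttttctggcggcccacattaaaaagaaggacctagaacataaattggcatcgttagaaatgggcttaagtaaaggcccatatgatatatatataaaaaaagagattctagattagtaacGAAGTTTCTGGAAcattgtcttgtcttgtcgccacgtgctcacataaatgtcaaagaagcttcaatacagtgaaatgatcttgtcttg
AT1G53540: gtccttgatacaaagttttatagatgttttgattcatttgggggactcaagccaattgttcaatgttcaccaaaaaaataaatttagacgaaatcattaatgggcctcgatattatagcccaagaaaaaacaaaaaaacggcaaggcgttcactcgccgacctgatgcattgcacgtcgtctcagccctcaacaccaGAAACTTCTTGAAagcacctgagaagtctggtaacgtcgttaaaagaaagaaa

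Across the 130 protein-coding genes, searched on both strands, the G-box stood in 11.54% of these windows, against 6.58% of 26709 windows before all protein-coding genes. The PIF-binding E-box CACATG stood in 7.69% against 11.16%. The ABA response elements ACGTGGC and ACGTGTC, which can share letters with a G-box, stood in 13 of the 130 windows and in 6.48% of all, and the seed RY motif CATGCA in 11.54% against 8.51%. The evening element AAAATATCT stood in 6.15% against 2.40%, the W-boxes TTGACC and TTGACT in 33.85% against 28.45%, and TATAAA in 46.15% against 47.74%. The heat shock element was in 2 of the 130 windows, those printed, and in 0.39% of all windows. The dehydration element ACCGAC was in 13 of the 130, against 4.72% of all windows. The heat shock and dehydration elements were not among the motifs planned at the start. These are letter matches only.

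By length-scaled level, the most abundant of the 137 in phyB at 12 h were MEE8, NBR1, AT1G07500 and AtCDC48B, at 2114, 1095, 626 and 528 FPKM in the authors' deposited group means. NBR1, AtCDC48B and MEE8 together made up 57.2% of the summed CPM of the 137 genes in phyB at 12 h, 40.9% at 24 h and 30.8% at 48 h. In bulk seeds, fewer cells of a type and less RNA per cell cannot be told apart, and this holds for every level given here.

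Among the genes of protein degradation, NBR1, the receptor that carries ubiquitin-tagged proteins into autophagosomes, had 2972, 2821 and 2916 CPM in phyB at 12 h, against 474, 428 and 473 CPM in WT. At 24 h it had 1567, 1432 and 1475 CPM in phyB, against 707, 673 and 622 CPM in WT. At 48 h it had 566, 535 and 540 CPM in phyB, against 187, 187 and 183 CPM in WT. The groups never overlapped, and the ratio was widest at 12 h (6.33), then 48 h (2.94) and 24 h (2.23). AtCDC48B, an AAA ATPase of the family that pulls ubiquitin-tagged proteins out of complexes, showed the same order of levels in phyB, with 1484, 1371 and 1506 CPM at 12 h, 449, 393 and 428 CPM at 24 h, and 226, 237 and 241 CPM at 48 h. WT held 173, 145 and 167 CPM, then 216, 188 and 199 CPM, then 33.3, 35.3 and 38.1 CPM at these times. Its ratios were 8.97, 2.101 and 6.58. AT4G08430, a Ulp1 protease family gene and thus related to enzymes that remove SUMO, was scarcer but further apart, at 5.69, 6.15 and 7.63 CPM in phyB at 12 h against 1.02, 0.315 and 0.615 CPM in WT, and its ratio reached 30.3 at 48 h. AT2G38870, a serine protease inhibitor of the potato type, had 119, 108 and 137 CPM in phyB at 12 h against 31.2, 31.0 and 44.1 CPM in WT, with ratios between 2.93 and 5.201 over the times.

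Of the 20 transcription factors, MEE8 had the largest ratio at 48 h, with the 0.1 CPM offset, of all 137 genes. Without the offset 2 scarcer genes with 1 WT count, AT4G04030 and AT3G25160, were further apart (202-fold and 175-fold, with 95% counting intervals of 35.8 to 8036 and 31.0 to 6974). Of the 100-base windows of AT4G04030, 59.05% have another copy in the nuclear genome. MEE8 is a bHLH protein named for an embryo arrest. It stood at 1107, 1189 and 1043 CPM in phyB at 12 h, against 266, 466 and 324 CPM in WT. At 24 h it stood at 714, 804 and 933 CPM in phyB, against 97.2, 118 and 103 CPM in WT. At 48 h it stood at 721, 689 and 696 CPM in phyB, against 2.83, 5.63 and 5.84 CPM in WT. Every phyB library thus held more than any WT library at each time, and the ratio at 48 h was 144.

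WRKY33, WRKY8, ABR1, DREB2C and DREB2B had their largest ratios at 12 h, whereas the zinc finger STZ had its largest at 48 h (3.92, 4.98 and 6.46 over the times). WRKY33, a regulator of camalexin defence, had 131, 107 and 179 CPM in phyB at 12 h, against 17.3, 3.78 and 16.2 CPM in WT, a ratio of 11.1 that was 2.201 at 48 h. WRKY8 had ratios of 16.3 at 12 h, 2.91 at 24 h and 13.1 at 48 h. ABR1, an AP2/ERF repressor of ABA responses, had 215, 190 and 260 CPM in phyB at 12 h, against 27.1, 19.1 and 24.9 CPM in WT, and its ratio was 2.12 at 24 h. The drought and heat factors DREB2C and DREB2B had ratios of 11.7 and 5.17 at 12 h. In WRKY33, WRKY8 and DREB2C, the second WT replicate at 12 h was the lowest of the 3, and the phyB libraries were above all WT libraries with or without it. SCL3, a GRAS protein that acts in gibberellin signalling, had 103, 109 and 98.1 CPM in phyB at 12 h, against 20.7, 35.1 and 21.4 CPM in WT. AT2G19850, annotated as a transcription repressor, had the largest smallest ratio among genes with at least 5 CPM in some phyB group, 9.74. It was read 213 times in the 3 phyB libraries at 48 h and 3 times in WT. Per library total and without the 0.1 CPM offset this is 83.0-fold, with a 95% counting interval of 28.0 to 406. Of the 100-base windows of AT2G19850, 21.18% have another copy in the nuclear genome.

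**Figure D2:**
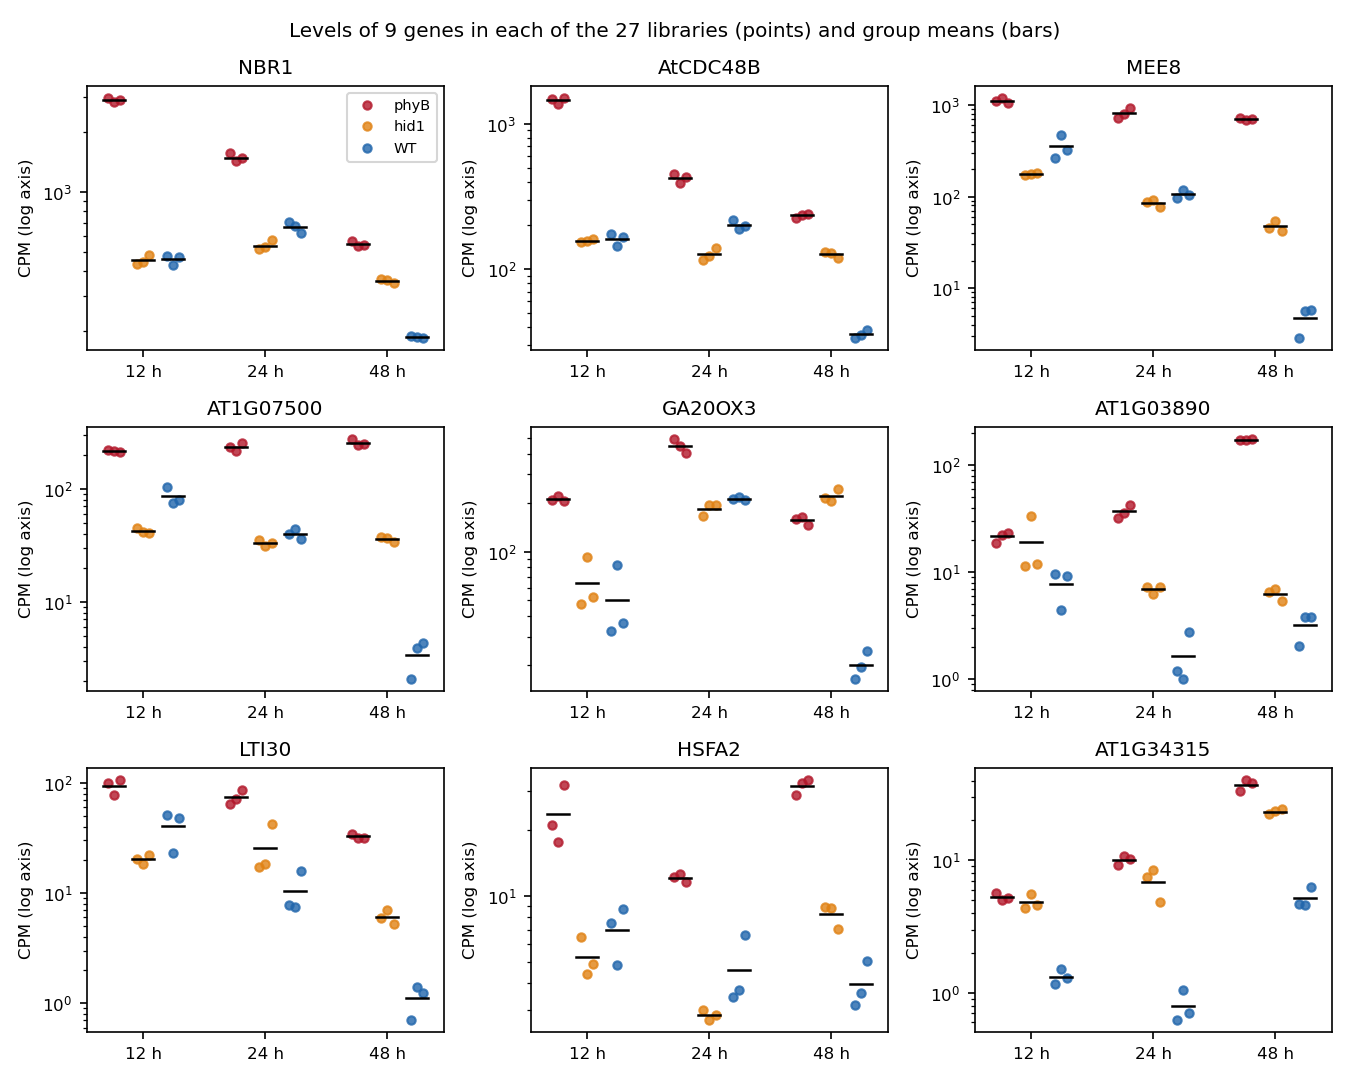
CPM on log axes of 9 of the genes in all 27 libraries, by time and, within a time, for phyB, hid1 and WT. Points are libraries and black bars group means; MEE8 and AT1G07500 stay high in phyB at 48 h while WT is near its lowest level, and GA20OX3 in hid1 at 48 h (204 to 244 CPM) is above phyB (145 to 164 CPM).

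Of the genes, 6 belong to gibberellin, auxin response and the dormancy family. GA20OX3, which makes precursors of active gibberellin, had 206, 218 and 204 CPM in phyB at 12 h, against 32.5, 83.2 and 36.2 CPM in WT. At 24 h it had 492, 443 and 402 CPM in phyB, against 210, 215 and 208 CPM in WT, and at 48 h 159, 164 and 145 CPM against 16.4, 19.4 and 24.5 CPM. By the labels it peaked at 24 h in both genotypes, and all 3 phyB libraries were above WT at each time. It was the sole gene of the 23 in a list of gibberellin metabolism and signalling to meet the rule. The pseudogene GA2OX5, related to enzymes that inactivate gibberellin, also met it, at low level. A pair of loci annotated as delay of germination proteins, relatives of the dormancy gene DOG1, stand near each other on chromosome 4. AT4G18660 had 42.6, 40.8 and 38.8 CPM in phyB at 48 h, against 0.698, 1.37 and 1.13 CPM in WT, a ratio of 35.1. AT4G18690 had 83.2, 72.9 and 69.4 CPM in phyB at 48 h, against 7.71, 14.5 and 13.6 CPM in WT. The auxin-responsive SAUR59 (AT3G60690), with 2 G-boxes in the stretch shown, had ratios of 5.66, 4.78 and 7.601.

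Of the 7 genes of seed storage, dehydration and cold response, AT1G03890 is an RmlC-like cupin, the fold of the seed storage globulins. It had 18.9, 22.5 and 23.4 CPM in phyB at 12 h, against 9.56, 4.41 and 9.16 CPM in WT. At 24 h it had 32.4, 36.2 and 42.6 CPM in phyB, against 1.18, 0.997 and 2.74 CPM in WT, and at 48 h 173, 172 and 176 CPM against 2.05, 3.84 and 3.81 CPM. The ratio grew with time, 2.78, 21.4 and 52.1, and no replicate overlapped. LTI30, a dehydrin, had 99.0, 78.0 and 106 CPM in phyB at 12 h, against 50.9, 23.0 and 48.5 CPM in WT, and 34.5, 31.8 and 31.6 CPM at 48 h against 0.698, 1.41 and 1.23 CPM. Its level was lower at 48 h than at 12 h in both genotypes, more so in WT. ERD7, a dehydration-associated protein, kept ratios of 2.44, 2.47 and 2.56. AT2G38905, annotated as low temperature and salt responsive, and AT1G05340 had ratios of 17.8 and 17.5 at 48 h, and the ratio of AT2G38905 was smaller at 24 h (3.397) than at 12 h (4.57). AT5G45630, annotated as a senescence regulator, had 5.31, 3.73 and 4.28 CPM in phyB at 48 h, against 0, 0.0761 and 0.322 CPM in WT, and its smallest ratio over the times was 4.62. Of 15 listed seed storage and oil body genes, AT1G03890 alone met the rule, and 0 of 14 listed late embryogenesis abundant genes did. Among the candidate rows 0.836% met it. The dehydrin LTI30 is not in that list. By the labels, the storage markers given above moved with this group at 24 h and 48 h but not at 12 h. At 12 h they summed to 12346 to 13298 CPM in phyB against 43386 to 47791 CPM in WT. At 24 h they summed to 58014 to 62471 CPM in phyB against 9317 to 12632 CPM in WT. These sums depend on the phyB 12 h and 24 h labels, which were taken as they stand. The part of the storage markers in the result was not tested.

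Heat shock proteins and their factors met the rule as well. From a list of 14 heat shock genes 3 did, HSFA2, AT1G53540 and HSP17.6II. HSFA2 had 21.0, 17.7 and 32.1 CPM in phyB at 12 h against 7.47, 4.84 and 8.72 CPM in WT, and 28.8, 32.8 and 33.7 CPM at 48 h against 3.18, 3.61 and 5.04 CPM. AT1G53540 had 42.5, 31.7 and 32.2 CPM in phyB at 48 h, against 2.36, 1.18 and 1.39 CPM in WT, a ratio of 20.4. The small chaperones HSP17.6II, AT1G07400, AT1G59860 and AT2G29500 had ratios at 48 h of 2.21, 3.98, 2.04 and 8.21. Replicates of these genes spread widely at 12 h. HSP17.6II had 18.1, 9.79 and 36.0 CPM in phyB and 9.07, 0.841 and 6.43 CPM in WT, with the second replicate lowest in both genotypes. In AT1G53540 and AT2G29500 the second phyB replicate lay below the first WT replicate at 12 h, so their groups overlapped. The smallest ratio of AT1G53540 over the times was 2.37. HSF A4A, another heat shock factor, had ratios of 4.57, 2.58 and 7.19.

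Among enzymes, NDA1, an alternative NAD(P)H dehydrogenase of mitochondria, had 12.7, 14.2 and 12.5 CPM in phyB at 48 h, against 0.349, 0.647 and 0.590 CPM in WT. CYP71A13, which makes an intermediate of the phytoalexin camalexin, had a peak at 24 h of 27.4, 35.3 and 25.9 CPM in phyB against 10.1, 13.0 and 15.2 CPM in WT. CYP71B22 and CYP71B24, of the same enzyme family, also stood highest at 24 h. AT1G17990 and AT1G18020, FMN-linked oxidoreductases, showed 27.2, 32.0 and 27.7 CPM for AT1G17990 in phyB at 48 h against 0.310, 0.494 and 0.322 CPM in WT. Every 100-base window of each of these loci occurs elsewhere in the nuclear genome as well, so how reads were shared between such copies decides their single values.

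Among transporters, the calcium pump ACA13 (AT3G22910) had the largest ratio of all 137 genes at 12 h, 48.3, 34.6 and 73.5 CPM in phyB against 2.81, 0.315 and 1.84 CPM in WT, a ratio of 29.7 that was 2.36 at 48 h. The nitrate transporter NRT1.8 had 81.2, 55.7 and 87.1 CPM in phyB at 12 h, against 31.5, 16.1 and 32.5 CPM in WT. The MATE efflux gene AT4G21903 had 7.66, 9.17 and 9.47 CPM in phyB at 48 h, against 0.155, 0.266 and 0.268 CPM in WT. Among kinases, receptors and immune proteins, the plasmodesmal protein PDLP1 had 40.8, 36.7 and 41.0 CPM in phyB at 12 h, against 6.99, 6.25 and 6.76 CPM in WT. CRK10, a cysteine-rich receptor kinase, stayed near the threshold with ratios of 2.32, 2.33 and 2.26.

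In the chromatin and cell division group, AT1G07500 (SMR5), of the SIAMESE-related inhibitors of cyclin-dependent kinases, had 277, 243 and 251 CPM in phyB at 48 h, against 2.05, 3.88 and 4.29 CPM in WT, a ratio of 73.3. At 12 h it had 220, 217 and 213 CPM in phyB, against 104, 74.3 and 79.2 CPM in WT. The whole of SMR5 lies inside AT1G07510 on the opposite strand, and the sources used here do not say whether counting used strand. AT1G07510 averaged 223 CPM in phyB and 108 CPM in WT at 12 h, close to the 217 and 85.8 CPM of SMR5 in phyB and WT. At 48 h AT1G07510 averaged 121 CPM in phyB and 59.5 CPM in WT. Its part in the reads given to SMR5 was not tested. DML1, also called ROS1, a DNA demethylase, had 63.3, 66.2 and 61.4 CPM in phyB at 12 h, 124, 127 and 136 CPM at 24 h, and 185, 226 and 232 CPM at 48 h. WT held 24.7, 26.1 and 23.0 CPM, then 16.7, 17.37 and 19.8 CPM, then 12.1, 14.4 and 16.0 CPM, so its ratio was 2.58 at 12 h, 7.16 at 24 h and 15.02 at 48 h. AT2G05642, an OB-fold protein thought to bind nucleic acids, was scarce, at 3.86, 5.82 and 5.66 CPM in phyB at 48 h against 0.0775, 0.0380 and 0.214 CPM in WT, with a smallest ratio of 4.77.

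Among noncoding loci, AT2G01422 and AT3G13277, both annotated as other RNA, had smallest ratios of 5.08 and 4.73. AT3G13277 had 15.9, 13.6 and 18.3 CPM in phyB at 12 h, against 3.11, 1.73 and 2.85 CPM in WT. The pseudogene AT1G79245 reached 551, 801 and 744 CPM in phyB at 48 h, against 170, 187 and 274 CPM in WT.

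Some of the genes are neighbours. AT4G28800, AT4G28811 and AT4G28815, 3 bHLH genes, follow each other on chromosome 4 between 14221632 and 14230380 (TAIR10.1), on the plus strand. Their ratios at 48 h were 23.9, 8.95 and 13.5, and the group means of AT4G28800 in phyB were 19.4, 5.90 and 26.9 CPM over the 3 times, lowest at 24 h. A second run of 3, AT4G31351, AT4G31354 and AT4G31355, lies between 15217257 and 15220811, where AT4G31355 sits wholly inside AT4G31354 on the opposite strand. Of their 100-base windows, 43.67, 30.86 and 0.0% in this order have another copy in the nuclear genome. The small heat shock gene AT1G59860 lies 62 bases from AT1G59865. Chromosomes 1 to 5 held 36, 23, 28, 25 and 25 of the genes, 26.28, 16.79, 20.44, 18.25 and 18.25% of them, against 26.43, 15.94, 19.82, 15.07 and 22.73% of 28932 annotated rows. Within 1 Mb of PHYB lay 2 of them, AT2G17840 (ERD7) and AT2G19850, and 552 of all rows.

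The genes were counted together as well. Their CPM summed to 9623, 9078 and 9991 in phyB at 12 h, to 6759, 6541 and 6751 at 24 h and to 4759, 4927 and 4774 at 48 h. In hid1 the sums were 1730, 1826 and 1812, then 1991, 2099 and 2285, then 1872, 1916 and 1924. In WT they were 2191, 2152 and 2239, then 2343, 2324 and 2397, then 788, 823 and 927. The sum was thus highest in phyB at 12 h and lowest in WT at 48 h. From gene to gene, the median of the 48 h to 12 h ratio was 0.628 in phyB, 0.782 in hid1 and 0.344 in WT. In phyB 79 genes had their highest mean at 12 h, 27 at 24 h and 31 at 48 h.

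**Figure D3:**
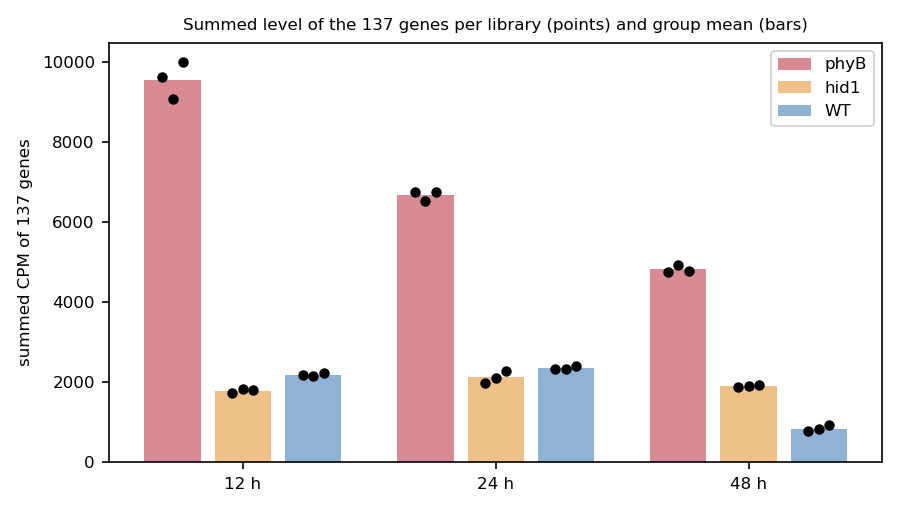
Summed CPM of the 137 genes in each of the 27 libraries (points) with group means (bars, axis from 0), for phyB, hid1 and WT at each time. By the labels, the phyB sums decline over the times but stay above those of hid1 and WT, which lie close together at 12 h and 24 h and apart at 48 h.

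The hid1 libraries did not enter the rule, so they show how the same genes stood in a second mutant. The WT libraries entered it as the lower group, and each test of hid1 against WT shares them. The choice of genes low in WT thus favours genes higher in hid1. At 12 h and 24 h the genes in hid1 lay near WT, and at 48 h most were higher in hid1 than in WT. All hid1 libraries lay below all phyB libraries in 130 genes at 12 h, 126 at 24 h and 122 at 48 h, where 46.5, 31.0 and 21.8% of the candidate rows did so. The phyB values here are those of the rule, which picked genes high in phyB, so nothing is read from this comparison. All hid1 libraries lay above all WT libraries in 12, 29 and 86 genes at these times, against 12.0, 12.6 and 40.4% of the candidate rows. They lay below all WT libraries in 30, 27 and 9 genes, against 17.1, 27.2 and 35.5%.

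At 12 h, 7 of the 137 genes were higher and 22 were lower in hid1 than in WT (edgeR quasi-likelihood F test, adjusted p under 0.05), and 108 did not pass. Of all 20465 genes tested, 7.49% were higher and 5.91% lower. The median log2 difference was -0.23 over the 137 genes and 0 over all tested. MEE8 had 174, 178 and 179 CPM in hid1, below each WT library, a log2 difference of -0.97 ± 0.16 (SE, edgeR adjusted p = 9.08e-05). SMR5 had 45.1, 41.7 and 40.8 CPM in hid1, and its log2 difference was -0.99 ± 0.11 (edgeR adjusted p = 6.71e-07). Other genes that were lower were LTI30 (-0.98), EXLA1, an expansin-like protein (-1.07), the zinc finger STZ (-1.09), SAUR41 or AT1G16510 (-1.54), the small chaperone AT1G07400 (-1.55) and GCL1 (-0.69). The chaperone had 8.20, 1.10 and 6.59 CPM in WT, and its second WT replicate overlapped the 1.52, 2.39 and 1.46 CPM of hid1. The 7 that were higher included CYP71A13, with 5.96, 2.70 and 4.89 CPM in hid1 against 0.340, 0 and 0.391 CPM in WT, a log2 difference of 4.19 ± 0.41 (edgeR adjusted p = 5.08e-08). CYP71B22 and CYP71B24 were higher by 2.38 and 1.66. The calls of LTI30, STZ, EXLA1 and AT1G07400 were lost without the first WT replicate (edgeR adjusted p = 0.0817, 0.0527, 0.244 and 0.182). Those of LTI30, EXLA1 and AT1G07400 were also lost without the third WT replicate (0.0597, 0.0643 and 0.0689), those of EXLA1 and AT1G07400 without the first hid1 replicate (0.0987 and 0.0692), EXLA1 without the second (0.058) and AT1G07400 without the third (0.0852). The call of CYP71B24 was lost without the second WT or the first hid1 replicate (edgeR adjusted p = 0.093 and 0.0956). The count of lower genes moved with single libraries. It was 12 without the first, 35 without the second and 13 without the third WT replicate, and 14 without the first hid1 replicate.

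At 24 h, 18 genes were higher and 12 lower in hid1, where 8.46% and 6.87% of all tested genes were. The median over the 137 was 0.06. LTI30 had 17.1, 18.23 and 41.9 CPM in hid1 against 7.82, 7.50 and 15.69 CPM in WT, higher by 1.38 ± 0.30 (edgeR adjusted p = 0.0017), the reverse of its difference at 12 h. AT2G38905 was higher by 0.74. AtCDC48B had 116, 123 and 139 CPM in hid1 against 216, 188 and 199 CPM in WT, lower, with a log2 difference of -0.62 ± 0.07 (edgeR adjusted p = 7.39e-07). ABR1 (-1.12), the nuclear membrane protein GEX1 (-1.13), the BTB protein AT1G01640 (-1.56) and AT1G07400 (-1.67) were lower too. The call of AT1G07400 was lost without the third WT replicate or the first or second hid1 replicate (edgeR adjusted p = 0.143, 0.06 and 0.08).

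At 48 h, 83 of the 137 genes were higher and 4 lower in hid1 than in WT. At this time 36.3% of all tested genes were higher and 43.0% lower, and the median was 0.99 over the 137 genes and -0.06 over all tested. The rule took genes low in these WT libraries. That favours genes higher in hid1, here and by role below, to an extent that was not tested. GA20OX3 had 212, 204 and 244 CPM in hid1 against 16.4, 19.4 and 24.5 CPM in WT, a log2 difference of 3.48 ± 0.26 (edgeR adjusted p = 1.44e-12). These hid1 libraries were above the phyB ones, 159, 164 and 145 CPM. MEE8 had 45.1, 54.3 and 42.1 CPM in hid1, higher than WT by 3.34 ± 0.21 (edgeR adjusted p = 3.41e-14). SMR5 had 37.5, 36.9 and 34.1 CPM in hid1, higher by 3.44 ± 0.15 (edgeR adjusted p = 3.65e-17). Its opposite-strand neighbour is named above. NBR1 had 367, 359 and 347 CPM in hid1 and was higher by 0.95 ± 0.07, and AtCDC48B had 130, 129 and 120 CPM and was higher by 1.84 ± 0.08.

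By role, 11 of 14 genes of protein degradation, 12 of 20 transcription factors, 8 of 14 transporters, 7 of 9 genes of chromatin and cell division, 6 of 7 genes of storage, dehydration and cold and 5 of 6 genes of the gibberellin, auxin and dormancy group were higher in hid1 at 48 h, when 36.3% of all tested genes were. So were 8 of 14 small-molecule enzymes, 7 of 16 kinases, receptors, calcium and immune proteins, 3 of 6 noncoding RNAs and pseudogenes, 1 of 4 cell wall and sugar hydrolases, and 15 of 20 genes of other or unknown function. Neither of the 2 retrotransposon-derived genes and none of the 5 small heat shock genes was, and AT1G59860 was lower, with a log2 difference of -0.70. Among the regulators, SCL3 was higher by 1.73, WRKY8 by 2.42, HSFA2 by 1.10, DREB2B by 1.36 and AT4G28800 by 2.13, whereas WRKY33 had a log2 difference of 0.24 in hid1 that did not pass (edgeR adjusted p = 0.356). AT2G38905 (3.65), AT4G18660 (2.99) and LTI30 (2.46) were higher among seed and dormancy genes, and NDA1 (3.67), AT4G21903 (3.19), PDLP1 (2.54) and NRT1.8 (2.06) among enzymes, transporters and membrane proteins. CYP71A13 was read 98 times in the hid1 libraries and once in WT, which per library total and without the 0.1 CPM offset is 120-fold, with a 95% counting interval of 21.1 to 4794. CYP71B22 was read 119 times in hid1 against once in WT, which on the same basis is 146-fold (25.7 to 5811). With the offset the ratios are 15.8 for CYP71A13 and 18.6 for CYP71B22. The other 3 lower genes were AT1G17990 (-2.04), PP2-B15 (-1.47) and OASA2 (-0.86). Without the first WT replicate at 48 h the calls of AT1G59860 and PP2-B15 were lost (edgeR adjusted p = 0.0874 and 0.101), as they were without the first (0.184 and 0.053) or the third hid1 replicate (0.11 and 0.0862). That of AT1G59860 was also lost without the second WT replicate (0.185). The storage markers moved with this comparison too, at 45270 to 56200 CPM in hid1 against 6488 to 11445 CPM in WT, with all 6 higher in each hid1 library. Endosperm markers, 7 genes, summed to 3396 to 3690 CPM in hid1 against 901 to 997 CPM in WT, with 6 higher in every hid1 library. Embryo markers, 6 genes, summed to 833 to 879 CPM in hid1 against 1496 to 1827 CPM in WT, with 2 higher and 1 lower in every hid1 library. Their part in the result was not tested.

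**Figure D4:**
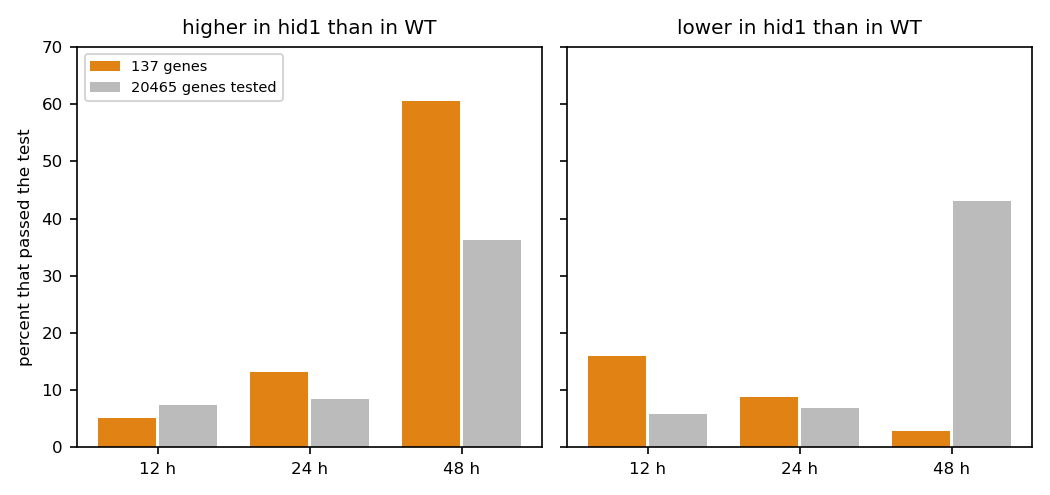
Percent of the 137 genes (orange) and of all 20465 tested genes (grey) that passed the test of hid1 against WT at each time, higher on the left and lower on the right. At 48 h 83 of the 137 genes were higher, against 36.3% of all tested genes, and 4 were lower, against 43.0%. The WT libraries also entered the rule as the lower group, which favours genes higher in hid1.

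In hid1, 3 of the 137 genes were higher than in WT at all 3 times, and none was lower at all 3, against 1.07% and 0.230% of all tested genes. The transmembrane protein AT1G34315 had 4.33, 5.54 and 4.603 CPM in hid1 at 12 h against 1.16, 1.52 and 1.29 CPM in WT, 7.50, 8.44 and 4.80 CPM at 24 h against 0.619, 1.05 and 0.700 CPM, and 22.2, 23.4 and 24.4 CPM at 48 h against 4.69, 4.602 and 6.27 CPM. Its log2 differences were 1.89, 3.16 and 2.19, and its hid1 and phyB libraries overlapped at 12 h. The pseudogene AT3G30120 was higher by 1.28, 1.34 and 4.64, with 2.38, 2.14 and 2.33 CPM in hid1 at 48 h against 0.0388, 0.114 and 0.107 CPM in WT. The cupin AT1G03890 was higher by 1.34, 2.16 and 0.99, with 6.47, 7.02 and 5.35 CPM in hid1 at 48 h against 173, 172 and 176 CPM in phyB. At 12 h it had 33.8 CPM in the second hid1 replicate and 11.5 and 12.0 CPM in the others, and its call was lost without that replicate (edgeR adjusted p = 0.0732). At 48 h it was lost without the first WT replicate (edgeR adjusted p = 0.125) or the first or second hid1 replicate (0.0639 and 0.0766).

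In 16 genes hid1 was lower than WT at 12 h and higher at 48 h, each time past the test, and none showed the reverse, patterns found in 3.87% and 3.63% of all tested genes. These are MEE8, SMR5, LTI30, ERD7, SAUR41, SAUR59, GCL1, AT1G05340, AT4G28800, GEX1, the cohesin subunit SYN2, the histone H2A gene RAT5, the ubiquitin-conjugating enzyme UBC12, the F-box gene AT5G10340, AT1G12320, a protein with an ankyrin and KH domain, and AT1G17830, of unknown function. The call of SAUR59 at 12 h was lost without any 1 of the 6 libraries but the second WT replicate (edgeR adjusted p = 0.0583 to 0.0974). The change of the hid1 effect between 12 h and 48 h was tested as an interaction, chosen after the values were seen. In the 16 genes an upward change follows from how they were chosen. Over the 137 genes the hid1 effect was higher at 48 h than at 12 h in 78 and lower in 0 (edgeR adjusted p under 0.05; at an unadjusted p under 0.05, 82 and 1). Among all tested genes 31.2% passed upward and 32.6% downward. The difference was 4.31 ± 0.26 for MEE8 and 4.44 ± 0.19 for SMR5 on the log2 scale.

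**Figure D5:**
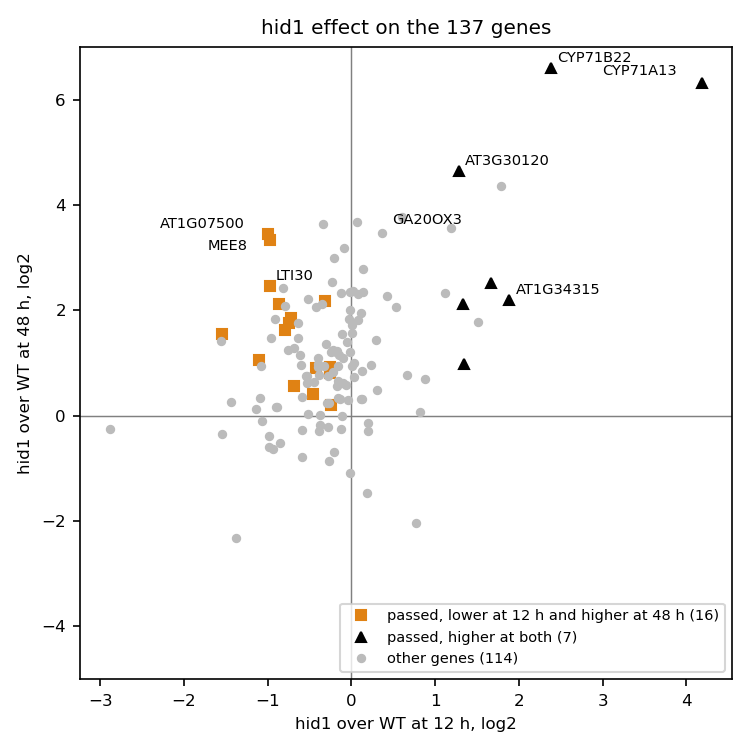
Log2 difference of hid1 from WT at 12 h (horizontal) and 48 h (vertical) for each of the 137 genes. Squares are the 16 genes that passed as lower at 12 h and higher at 48 h, triangles the 7 that passed as higher at both times, and grey points the rest; 116 of the 137 points lie above the horizontal line at 0, and those of CYP71A13 and CYP71B22 rest on 1 WT count at 48 h.

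Over time in hid1 itself, 39 genes rose and 46 fell between 12 h and 24 h, against 30.0% and 28.9% of all tested genes, and with scaling by total counts 50 rose and 32 fell, as this scaling moved the median of all tested genes by 0.2359. Among those that rose were AT2G38905 by 2.31 (26.4, 25.7 and 25.6 CPM at 24 h, against 4.93, 3.61 and 4.70 CPM at 12 h), MYB15 by 2.41, EXLA1 by 2.24, AT4G18690 by 1.56, CYP71A13 by 1.52 and GA20OX3 by 1.26. The nitrate transporter NRT2.5 had 0.161, 0.234 and 0.172 CPM at 24 h against 3.47, 3.51 and 3.24 CPM at 12 h, and fell by 4.37 ± 0.32 on the log2 scale (edgeR adjusted p = 8.57e-12). The beta-glucosidase DIN2 fell by 2.80, AT1G53540 by 2.17, AT1G03890 by 1.72, MEE8 by 1.30 and HSFA2 by 1.11. Between 24 h and 48 h, 16 genes rose and 65 fell, against 31.5% and 28.4% of all tested genes, with a median of -0.58. AT4G28800 rose by 1.80, AT1G34315 by 1.73, HSFA2 by 1.52, AT5G10340 by 2.84 and AT1G79245 by 1.04. CYP71A13 fell by 3.17, the mannanase MAN1 by 2.92, MYB15 by 2.44, LTI30 by 2.09 and MEE8 by 0.87.

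None of the 137 genes was in a list of 24 genes of phytochrome signalling, all of which were tested. In phyB against WT, 7 of these were higher and 9 lower at 12 h (edgeR adjusted p under 0.05; 30.0% and 34.2% of all tested genes were), 10 and 9 at 24 h (31.8% and 34.6%), and 13 and 10 at 48 h (40.0% and 49.4%). With scaling by total counts the split was 8 and 11 at 24 h and 7 and 14 at 48 h, where the median of all tested genes was -0.92 instead of -0.24. PHYB itself was lower in phyB, with log2 differences of -1.04 at 12 h and -0.84 at 24 h, and at 48 h its log2 difference was 0.23 with TMM scaling and -0.45 with scaling by total counts. PIF4, a promoter of growth in the dark, was lower, with log2 differences of -4.47, -3.33 and -1.42. The shade gene ATHB2 was higher by 1.65, 1.596 and 1.28 with TMM scaling. On the CPM of the rule, scaled by total counts, it fell short of 2-fold at 48 h, with means of 46.0 in phyB and 30.3 in WT. PIF6 was higher by 2.82 at 24 h and 4.56 at 48 h. PIF1, which holds back germination in the dark, was lower at 12 h and 24 h (-1.35, -0.41) and higher at 48 h (1.40). The lists of ABA signalling and dormancy (24 genes), ABA synthesis and breakdown (14), protein folding in the endoplasmic reticulum (20), defence (15), glutathione transferases (9), the circadian clock (10), cell wall loosening (7) and of endosperm, embryo and seed coat markers (7, 6 and 10) held none of the 137 genes either. The lists are short and do not cover whole gene classes. As only 0.836% of the candidate rows met the rule, few or no members would be looked for in lists of this size. Nothing is read from these absences. The glutathione transferase GSTU9, the expansin-like EXLA1 and the defence regulator WRKY33 are among the 137 but in none of the lists.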

How the data were processed

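RNA was measured in 27 seed libraries of 3 genotypes at 3 times, with 3 biological replicates per group. Per the labels' protocols, poly(A) libraries were made with a TruSeq kit and sequenced as read pairs on an Illumina instrument. The submitters' processing notes name fastp, HISAT2 2.1.0, SAMtools 1.6 and TAIR10. The counting program, its strand setting and the mutant alleles are not stated there or in the labels. The authors deposited 1 table of raw gene counts, which is the base of every test, and tables of FPKM, which the authors had divided by gene length and used here only to compare levels between genes. Library totals were 14750212 to 26293148 counts, and 5633 of 33612 rows had no count; no row lacked a gene name.

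The 137 genes, the role groups and the 15 gene lists were chosen with earlier results of these data known. CPM for the rule and for all levels is 1000000 times the count over the column sum. Tests used edgeR 4.0.16 in R 4.3.3 (TMM scaling, filterByExpr, quasi-likelihood F test) on 20465 genes, with 1 fit of all 27 libraries, 18 residual degrees of freedom and Benjamini-Hochberg adjustment at 0.05 over all genes. All 137 genes passed the filter. Alternatives were total-count and RLE scaling, no filter, DESeq2 1.42.0, fits of single pairs of groups, leaving out each library, a replicate block and exchanged phyB labels. In simulated data for hid1 against WT at 12 h, 47 of 50 genes changed by a fold of 2 and 45 of 50 changed by a fold of 0.5 were recovered, with 11 false calls among 20465 genes. The simulation gave every gene the same fixed spread and planted changes only in genes above a set WT level. It checks that the fit runs as meant, and does not measure power or error at the spread of the real replicates. The 27 pairs of replicates differed by more than sampling noise (chi-square per degree of freedom 2.04 to 19.6), so all counted as separate samples.

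Replicate numbers come from the sample titles. Deviations of same-numbered hid1 and WT libraries correlated at 0.102, 0.337 and 0.264 at 12 h and at 0.135, 0.170 and 0.366 at 48 h, above 0.1 in each pair, but not in each pair at 24 h. Pairs with unlike numbers ranged from -0.2908 to 0.1433 at 12 h and from -0.3905 to 0.2956 at 48 h. Positions and upstream sequences come from RefSeq TAIR10.1. Genes were named if they had the 8 highest mean levels in phyB or the 8 largest smallest ratios, stood in a list, passed in hid1 at all 3 times, lay at the threshold or neighboured another. Others were chosen after their values were seen. Counting intervals cover counting error only, at 95%.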

Additional observations from a re-analysis of the deposited data

Results flagged for a closer look

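The difference between hid1 and WT was not the same at 12 h and 48 h. The change of the difference, 48 h minus 12 h, was tested as an interaction added after the data were seen, and it passed upward in 78 of the 137 genes. Of all tested genes 31.2% passed upward and 32.6% downward. The WT libraries of both times also entered the rule. On the log2 scale the change was 4.44 for AT1G07500 (SMR5), 4.31 for MEE8, 3.61 for NDA1, 3.44 for LTI30, 3.20 for AT4G18660, 3.11 for GA20OX3 and 0.95 for NBR1. SMR5, MEE8 and LTI30 are among the 16 genes picked as lower at 12 h and higher at 48 h. For these 16 an upward change follows from how they were chosen. Groups of 3 libraries were not searched for single outlying samples.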

How the results depend on the processing

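The number of genes that meet the rule depended on its settings. It was 207 on TMM-scaled library sizes, 70 with an offset of 1 CPM, 409 at a ratio of 1.5, 29 at a ratio of 3, 48 when the lowest phyB replicate was set against the highest WT replicate and 2659 at 48 h alone, a setting added after the data were seen. Leaving out 1 library gave 130 to 149. A fit of only hid1 and WT gave 4 higher and 12 lower genes at 12 h and 2 lower at 48 h, and scaling by total counts gave 7 phytochrome list genes higher in phyB at 48 h and a PHYB difference of -0.45; the cause was not tested. Leaving out 1 library, hid1 against WT gave 5 to 8 higher and 12 to 35 lower genes at 12 h, 14 to 16 and 8 to 13 at 24 h, and 73 to 85 and 2 to 4 at 48 h. The interaction gave 70 to 89 upward and 0 to 2 downward, 24 h against 12 h in hid1 31 to 38 and 37 to 44, and 48 h against 24 h 14 to 16 and 57 to 63. The phytochrome list gave 5 to 7 higher and 8 to 9 lower, 9 to 10 and 8 to 9, and 12 to 13 and 10 over the times. With the replicate number as a block, 7 genes were higher and 29 lower in hid1 at 12 h, 20 and 13 at 24 h and 84 and 4 at 48 h, and no count of calls moved by over 1.5 times. Of single-gene values, 721 of those with a library left out kept their call, 46 lost it and 1 gained it. Few counts limit AT1G17990, CYP71A13, CYP71B22 and AT2G19850.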
